A study of Homo sapiens with 14 samples.

Results

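Human embryonic stem cells of the line WA01, also called H1, were compared before and after induction toward neural crest with the lower of the study's 2 doses of CHIR99021. CHIR99021 inhibits the kinase GSK3, which marks beta-catenin for destruction, and so switches on canonical Wnt signaling. The induced group, low Wnt, received 3 µM CHIR99021 from hour 0 to hour 72 with no other additive, was cultured in DMEM/F12 supplemented with B27 and BSA over Matrigel, and was harvested as 500000 cells after day 5. The control group, hESC, was not induced. Both groups come from 1 cell line and make up 4 of the study's 14 libraries, named low Wnt 1, low Wnt 2, hESC 1 and hESC 2. High Wnt, 2 libraries given 10 µM CHIR99021 over the same hours, is used where the dose bears on a result. Of 26485 genes in the count table, 16149 passed the filter on low counts over all 14 libraries and were tested.

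Neural crest is a migratory embryonic population that arises at the border of the neural plate and gives rise to peripheral neurons, glia, pigment cells and much of the face. Its formation depends on Wnt signaling together with FGF, BMP and retinoic acid, and stronger Wnt signaling also gives cells a more posterior position along the body axis. Pluripotent stem cells in culture are epithelial and depend on nodal and FGF signaling.

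The gene counts of low Wnt 1 and 2 summed to 16654777 and 16764513, and those of hESC 1 and 2 to 14174120 and 12930505. Levels are counts per 1000000 counts of the library (CPM), and fold changes are log2 values of low Wnt over hESC ± standard error, so that a positive value is higher in low Wnt. A gene was called where edgeR's quasi-likelihood test gave a Benjamini-Hochberg adjusted p under 0.05 over all tested genes. The correlation of log2 CPM across genes was 0.99 between the low Wnt libraries and 0.988 between the hESC libraries. It is not stated whether paired libraries were grown separately, so the p-values rest on library-to-library spread that may be technical.

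Most of the transcriptome differed between low Wnt and hESC. Every induced group of the study received CHIR99021, so in this comparison its effect cannot be told apart from that of medium or days in culture. Of the 16149 genes tested, 11535 were called (71.4%), 5780 of them higher in low Wnt (35.8%) and 5755 lower (35.6%). A log2 fold change of at least 3 was passed by 690 genes that rose (4.27%) and 841 that fell (5.21%), and the median over all tested genes was 0.0040. The gene lists below are read against these shares. The libraries of the groups did not overlap in 13650 tested genes (84.5%), among them every gene named below as having risen or fallen. In bulk RNA fewer cells of a type and less RNA per cell cannot be told apart.

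**Figure D1:**
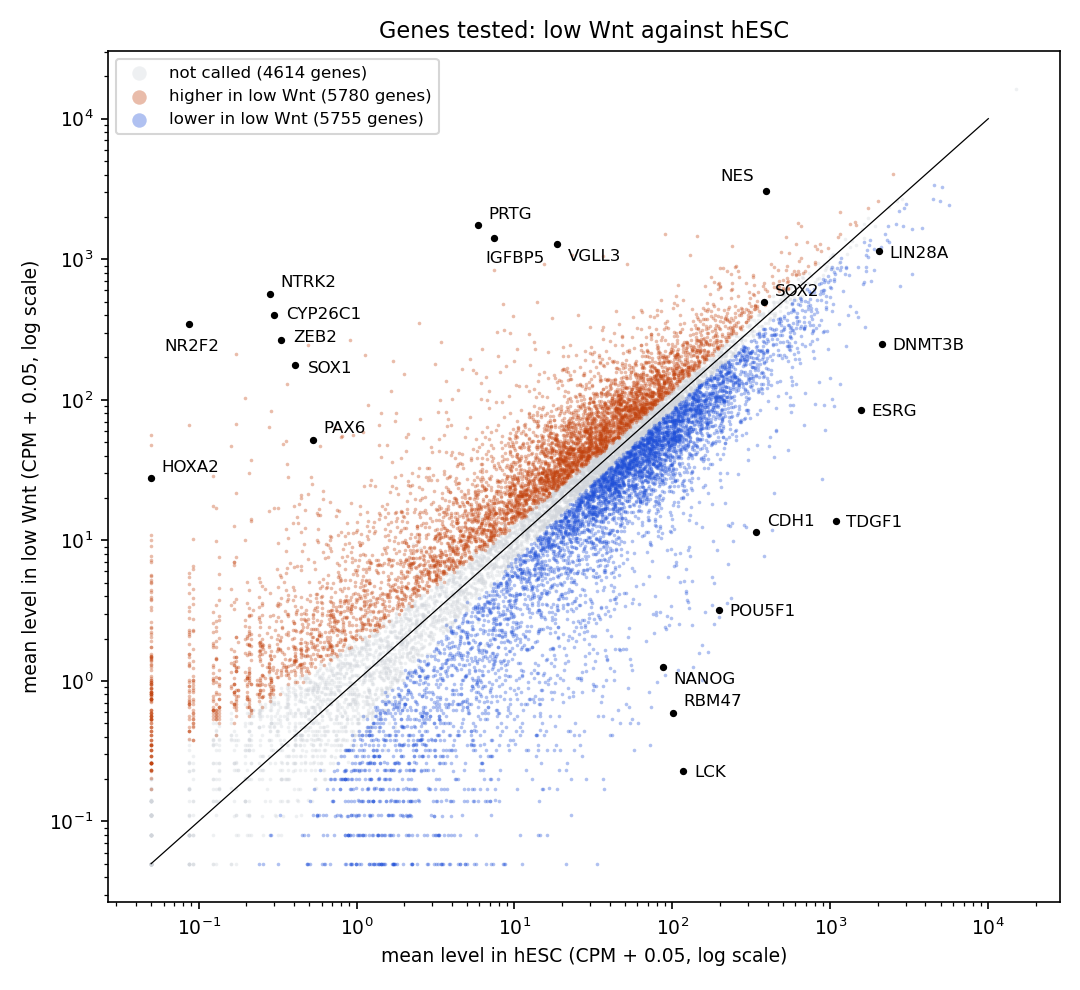
Mean level of each of the 16149 tested genes in low Wnt (vertical) and hESC (horizontal), n = 2 libraries each, as CPM + 0.05 on log axes, with genes of interest named; the line marks equal levels. NR2F2, NTRK2 and HOXA2 lie at the upper left and POU5F1 and LCK at the lower right, while LIN28A and SOX2 lie near the line.

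Most pluripotency factors fell and some, among them POU5F1 and NANOG, were nearly gone, while SOX2, described below, rose. Of 20 tested pluripotency factors 16 fell, 1 rose and 3 were not called, with a median log2 fold change of -3.06 against 0.0040 over all tested genes. POU5F1, the OCT4 transcription factor that holds the pluripotent state, had 1.95 and 4.37 CPM in low Wnt, against 164 and 231 CPM in hESC (log2 fold change -5.96 ± 0.29, adjusted p = 2.12e-11). NANOG (chromosome 12, 7789396 to 7796061, hg38), its homeobox partner, had 0.731 and 1.67 CPM in low Wnt, against 80.6 and 93.5 CPM in hESC (log2 fold change -6.16 ± 0.28, adjusted p = 2.46e-11). TDGF1, the nodal co-receptor also called CRIPTO, had 10.1 and 17.4 CPM in low Wnt, against 1084 and 1071 CPM in hESC (log2 fold change -6.29 ± 0.20, adjusted p = 1.85e-13). Each of these stood in both low Wnt libraries at a few percent of the stem cell level or less. PRDM14, a zinc-finger regulator that keeps human stem cells undifferentiated, had 7.67 and 15.2 CPM in low Wnt, against 93.3 and 102 CPM in hESC (log2 fold change -3.09 ± 0.22, adjusted p = 2.12e-09). L1TD1, an RNA-binding protein of stem cells, had 23.3 and 31.2 CPM in low Wnt, against 975 and 805 CPM in hESC (log2 fold change -5.03 ± 0.19, adjusted p = 1.08e-12). The long noncoding RNA ESRG had 78.9 and 89.8 CPM in low Wnt, against 1679 and 1461 CPM in hESC (log2 fold change -4.22 ± 0.12, adjusted p = 4.64e-14). These last genes kept more of their level but were still far below both hESC libraries.

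What remained of several stem cell genes was larger in low Wnt 2 than in low Wnt 1. POU5F1, NANOG, TDGF1 and PRDM14 above all showed this order. UTF1, a chromatin protein of pluripotent cells, showed the opposite order, with 0.548 and 0.0598 CPM in low Wnt, against 9.77 and 10.2 CPM in hESC. Among 251 genes at 20 CPM or more in hESC that fell by a log2 fold change of at least 3, the level left was higher in low Wnt 2 for 151. The median left was 4.34% of the hESC mean in low Wnt 1 and 4.84% in low Wnt 2. In high Wnt less was left of TDGF1 and NANOG than in low Wnt. TDGF1 had 10.1 and 17.4 CPM in low Wnt, against 0.332 and 0.206 CPM in high Wnt (log2 fold change, low Wnt against high Wnt, 5.66 ± 0.40, adjusted p = 6.47e-09). NANOG had 0.731 and 1.67 CPM in low Wnt, against 0 and 0 CPM in high Wnt.

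Some genes shared by stem cells and early neural tissue stayed high. SOX2, which serves both states, had 543 and 442 CPM in low Wnt, against 376 and 383 CPM in hESC (log2 fold change 0.38 ± 0.12, adjusted p = 0.00982). Its low Wnt libraries lay above both hESC libraries, but the call was lost without low Wnt 1. SALL4, a zinc-finger factor of stem cells and tail bud, had 205 and 191 CPM in low Wnt, against 170.5 and 179.5 CPM in hESC and was not called. LIN28A, an RNA-binding protein that blocks let-7 maturation, had 1052 and 1221 CPM in low Wnt, against 1997 and 2042 CPM in hESC (log2 fold change -0.83 ± 0.13, adjusted p = 2.08e-05). Low Wnt thus kept 56.3% of the mean hESC level of LIN28A. DPPA4, a chromatin protein of pluripotent cells, had 264 and 278 CPM in low Wnt, against 867 and 768 CPM in hESC (log2 fold change -1.59).

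Of 20 tested genes of the stem cell surface and other genes enriched in stem cells 19 fell (median -2.88) and ITGA6 was not called. THY1, the CD90 antigen, had 45.6 and 42.6 CPM in low Wnt, against 493 and 582 CPM in hESC (log2 fold change -3.61). The neuropeptide GAL had 1.71 and 1.38 CPM in low Wnt, against 129 and 166 CPM in hESC (log2 fold change -6.57). LCK, a kinase of the SRC family known mainly from lymphocytes, had 0.0609 and 0.299 CPM in low Wnt, against 93.9 and 141 CPM in hESC (log2 fold change -9.28). PODXL, which carries the TRA-1 epitopes, ran against these deep falls and kept most of its level, with 1314 and 1411 CPM in low Wnt, against 1863 and 1726 CPM in hESC (log2 fold change -0.40).

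The genes that define neural crest were low or moved in both directions. Of 20 tested neural crest specifiers 9 rose, 6 fell and 5 were not called, with a median of 0.26. That median was 0.52 without low Wnt 1, 0.17 without low Wnt 2, 0.090 without hESC 1, 0.48 without hESC 2 and 0.45 with the length trend removed. SOX10, the factor of migratory crest and its glia, had 4.26 and 3.83 CPM in low Wnt, against 4.74 and 6.53 CPM in hESC and was not called. TFAP2A, an early factor of border and crest, had 3.84 and 3.17 CPM in low Wnt, against 0.222 and 0.0848 CPM in hESC (log2 fold change 4.40 ± 0.59, adjusted p = 4.46e-06). TFAP2B, its relative, had 2.86 and 2.63 CPM in low Wnt, against 0.074 and 0 CPM in hESC (ratio of low Wnt over hESC 69.5, with 12.2 to 2773 as the 95% counting interval, adjusted p = 2.1e-06). Both TFAP2 genes rose but stayed under 4 CPM in both low Wnt libraries. FOXD3, which serves stem cells as well as premigratory crest, had 0.853 and 0.179 CPM in low Wnt, against 32 and 41 CPM in hESC (log2 fold change -6.13 ± 0.38, adjusted p = 4.71e-10). ETS1, a factor of cranial crest, had 13.8 and 15.8 CPM in low Wnt, against 92.3 and 73.6 CPM in hESC (log2 fold change -2.49 ± 0.13, adjusted p = 5.55e-11). TWIST1, of cranial crest mesenchyme, had 0.183 and 0.359 CPM in low Wnt, against 0.222 and 0.255 CPM in hESC. FOXD3 and ETS1 thus fell in low Wnt, and TWIST1 was barely detected in any of the 4 libraries. SNAI2, which acts in crest delamination, had 17.8 and 19 CPM in low Wnt, against 0.888 and 0.849 CPM in hESC (log2 fold change 4.39 ± 0.28, adjusted p = 6.52e-10). SOX9, which also marks neural progenitors, had 20.3 and 15.2 CPM in low Wnt, against 6.22 and 5.6 CPM in hESC (log2 fold change 1.58). SOX5, a SOX9 partner in crest, had 20.2 and 24.5 CPM in low Wnt, against 0.444 and 0.679 CPM in hESC (log2 fold change 5.31). These 3 were higher in both low Wnt libraries at levels of about 15 to 25 CPM. The border genes that precede crest rose more evenly, 10 of 13 tested being higher and 2 lower (median 2.51), and PAX7, a border and crest factor, had 0.914 and 0.957 CPM in low Wnt, against 0.074 and 0 CPM in hESC.

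The receptors of migrating and differentiating crest rose in 13 of 20 tested members, with 3 lower and 4 not called (median 1.5). NGFR, the p75 neurotrophin receptor often used to sort crest, had 93.1 and 98.8 CPM in low Wnt, against 18.6 and 24.6 CPM in hESC (log2 fold change 2.16 ± 0.13, adjusted p = 2.22e-10). NTRK2, the receptor of the neurotrophin BDNF, had 565 and 574 CPM in low Wnt, against 0.296 and 0.17 CPM in hESC (log2 fold change 11.18 ± 0.30, adjusted p = 2.82e-14). NRP2, a semaphorin receptor that guides crest streams, had 934 and 902 CPM in low Wnt, against 54 and 48.8 CPM in hESC (log2 fold change 4.16 ± 0.13, adjusted p = 1.52e-13). All 3 were above 90 CPM in low Wnt, NTRK2 from near absence. CDH11, a cadherin of migrating crest and mesenchyme, had 313 and 299 CPM in low Wnt, against 8.07 and 7.3 CPM in hESC (log2 fold change 5.31 ± 0.13, adjusted p = 1.41e-14). EDNRB, an endothelin receptor of melanocyte and enteric precursors, fell, with 2.19 and 3.89 CPM in low Wnt, against 87.7 and 80.1 CPM in hESC (log2 fold change -4.78). ERBB3, the neuregulin receptor of crest glia, fell as well. Between the doses, NGFR was higher in low Wnt, with 93.1 and 98.8 CPM in low Wnt, against 18.2 and 19.3 CPM in high Wnt (log2 fold change, low Wnt against high Wnt, 2.36 ± 0.13, adjusted p = 1.84e-10). SNAI2 was lower in low Wnt, with 17.8 and 19 CPM in low Wnt, against 46.4 and 37.1 CPM in high Wnt (log2 fold change, low Wnt against high Wnt, -1.18 ± 0.17, adjusted p = 2.97e-05). SOX10 had 4.26 and 3.83 CPM in low Wnt, against 1.66 and 1.44 CPM in high Wnt (log2 fold change, low Wnt against high Wnt, 1.38 ± 0.32, adjusted p = 0.0025). Across the 16149 genes tested between the doses 6223 were called (38.5%), and this comparison shares its low Wnt libraries with the one against hESC.

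**Figure D2:**
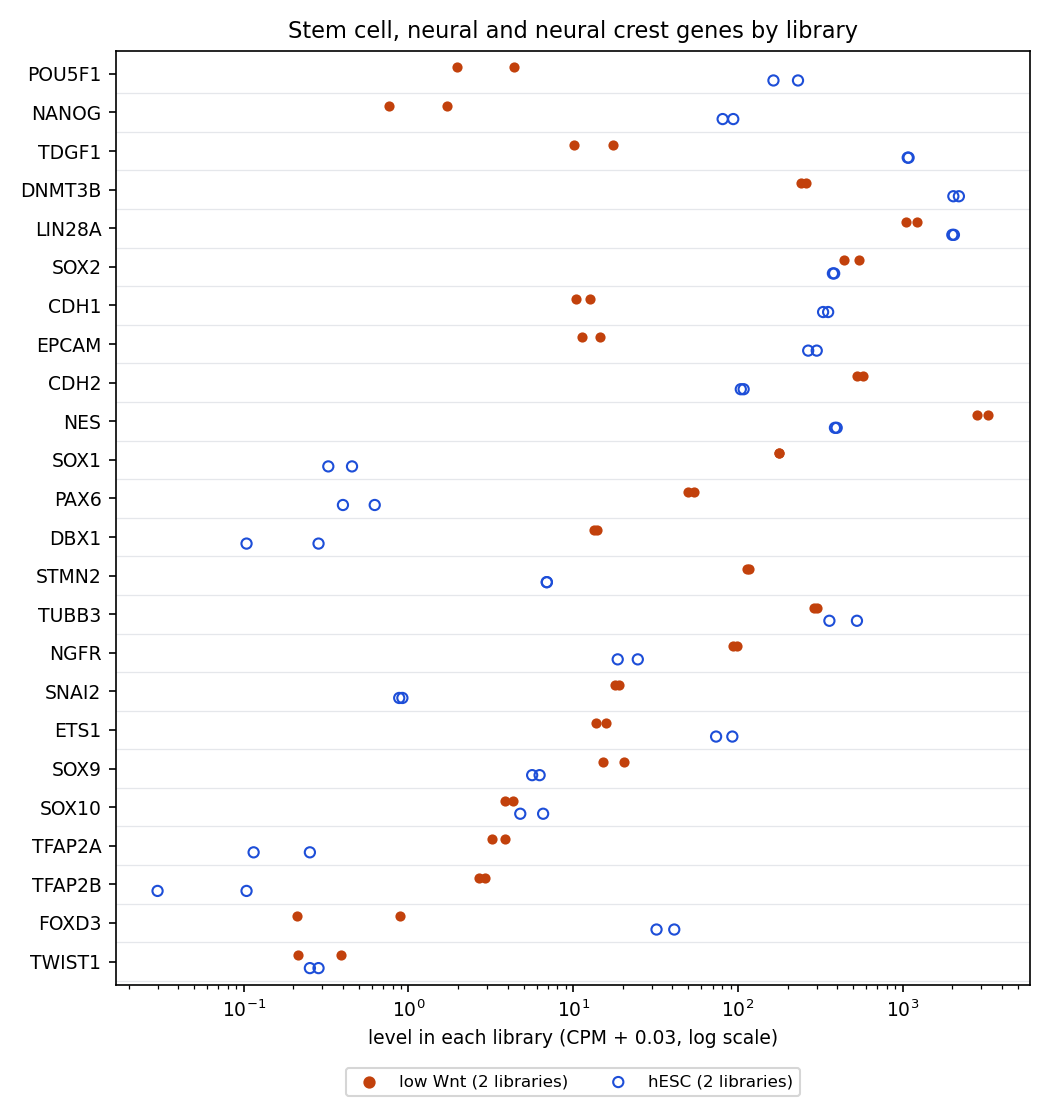
Level of 24 stem cell, neural and neural crest genes in each library, as CPM + 0.03 on a log axis, low Wnt as filled and hESC as open circles. The 2 libraries of a group lie close together for most genes, SOX1 and PAX6 are far higher in low Wnt, and SOX10 and TWIST1 are low in all 4 libraries.

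Genes of the neural plate and its progenitors rose to high levels. Of 21 tested members of the neural progenitor list 17 rose, 2 fell and 2 were not called (median 2.66). SOX1, the earliest factor restricted to neural plate, had 177 and 176 CPM in low Wnt, against 0.296 and 0.424 CPM in hESC (log2 fold change 8.92 ± 0.26, adjusted p = 6.88e-14). PAX6, of neural tube progenitors (chromosome 11, 31784792 to 31817961), had 54.1 and 50 CPM in low Wnt, against 0.37 and 0.594 CPM in hESC (log2 fold change 6.75 ± 0.31, adjusted p = 1.2e-11). NES, the progenitor filament protein nestin, had 3298 and 2810 CPM in low Wnt, against 387 and 397 CPM in hESC (log2 fold change 2.96 ± 0.12, adjusted p = 4.01e-12). SOX1 and PAX6 were below 1 CPM in both hESC libraries, and NES was the gene with the largest rise in CPM among those the naming rule considered. The POU factor POU3F2 had 103 and 79.8 CPM in low Wnt, against 1.41 and 0.849 CPM in hESC (log2 fold change 6.31). LIX1 had 262 and 268 CPM in low Wnt, against 1.11 and 0.594 CPM in hESC (log2 fold change 8.24). SOX21, a SOX factor of neural progenitors, had 145 and 186 CPM in low Wnt, against 4.15 and 5.09 CPM in hESC (log2 fold change 5.17). Against the list, SLC1A3, the astroglial glutamate transporter, fell, with 14.7 and 14.8 CPM in low Wnt, against 34.2 and 31.9 CPM in hESC (log2 fold change -1.16). FABP7, of radial glia, had 7.67 and 8.49 CPM in low Wnt, against 14.3 and 12.5 CPM in hESC (log2 fold change -0.73), a fall no longer called once the trend with gene length described below was removed. SOX3 and PTPRZ1 were not called.

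Neuronal genes split. Of 20 tested genes of neurogenesis and early neurons 10 rose and 7 fell (median 1.11, 0.50 without low Wnt 1 and 0.63 with no filter). STMN2, a microtubule regulator of growing axons, had 113 and 117 CPM in low Wnt, against 6.88 and 6.87 CPM in hESC (log2 fold change 4.06). MAP2, a dendritic microtubule protein, had 478 and 475 CPM in low Wnt, against 9.62 and 7.3 CPM in hESC (log2 fold change 5.81). RBFOX3, the NeuN antigen of mature neurons, had 3.71 and 2.81 CPM in low Wnt, against 23 and 25.9 CPM in hESC (log2 fold change -2.90). STMN2 and MAP2 thus rose in low Wnt, and RBFOX3 fell. SYT1, of synaptic vesicles, fell too, with 19.8 and 17.2 CPM in low Wnt, against 76.8 and 59.6 CPM in hESC (log2 fold change -1.88). TUBB3, the neuronal tubulin, had 288 and 300.1 CPM in low Wnt, against 358 and 527 CPM in hESC, a fall called at an adjusted p of 0.00196 that was lost without hESC 2. NEUROG1, NEUROG2, NEUROG3, NEUROD1 and LHX1 had at most 0.299 CPM in any of the 4 libraries. Other neuronal and glial lists moved both ways, with 7 of 24 tested neurotransmitter receptors and channels higher and 12 lower, against 6 lower without low Wnt 2. Of 10 tested glial genes 3 rose and 4 fell, and of 17 tested intermediate filament genes 3 rose and 10 fell.

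Hindbrain regulators rose. Of 19 tested members 17 rose, none fell and 2 were not called (median 2.39, and 3.76 with the 2 groups alone), where 35.8% of all tested genes rose. NR2F2 (chromosome 15, 96325928 to 96340263), a COUP-TF nuclear receptor, had 379 and 316 CPM in low Wnt, against 0.074 and 0 CPM in hESC (ratio of low Wnt over hESC 8789, with 1577 to 347200 as the 95% counting interval, adjusted p = 1.14e-14). Its paralogue NR2F1 had 107 and 100.3 CPM in low Wnt, against 0.296 and 0 CPM in hESC (log2 fold change 9.28 ± 0.26, adjusted p = 4.34e-14). CYP26C1, which breaks down retinoic acid in hindbrain and pharyngeal tissue, had 423 and 382 CPM in low Wnt, against 0.074 and 0.424 CPM in hESC (log2 fold change 10.68 ± 0.25, adjusted p = 1.14e-14). Each of these was at or below 0.424 CPM in both hESC libraries and at or above 100.3 CPM in both low Wnt libraries. MEIS2, a HOX cofactor, had 252 and 240.3 CPM in low Wnt, against 0.37 and 0.509 CPM in hESC (log2 fold change 9.12 ± 0.22, adjusted p = 1.41e-14). EPHA4, a receptor of alternating hindbrain segments, had 232 and 225 CPM in low Wnt, against 6.0 and 6.28 CPM in hESC (log2 fold change 5.22 ± 0.13, adjusted p = 1.41e-14). GREB1L had 213 and 209 CPM in low Wnt, against 0.074 and 0.17 CPM in hESC (ratio of low Wnt over hESC 1782, with 609.6 to 8644 as the 95% counting interval, adjusted p = 6.44e-14). EGR2, which marks hindbrain segments, rose less, with 5.79 and 6.28 CPM in low Wnt, against 2.0 and 1.7 CPM in hESC (log2 fold change 1.70).

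HOX genes, whose order along each cluster follows their order along the body, were detected mainly at the hindbrain end. Of 12 tested paralogues 1 to 4, 10 rose and none fell, though fewer were called higher without low Wnt 2, hESC 1 or hESC 2. In 8 of the 12, which had no counts in hESC, a fall could not have been seen. Of 11 tested paralogues 5 to 8, 7 rose. Of 16 paralogues 9 to 13, 6 were tested and 2 rose, where 3 rose without low Wnt 1, 1 without low Wnt 2 and 1 without hESC 1. Of the 29 HOX genes tested 23 had no counts in hESC and passed the filter through other groups. These counts therefore do not stand for all HOX genes. With the 2 groups alone 6, 1 and 1 genes of the 3 lists were tested and all rose. A gene at or near 0 in hESC passes that filter only through low Wnt, so nothing is read from this direction. In paralogues 5 to 8 the number that rose was 4 without hESC 1 or without hESC 2.

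HOXA2 (chromosome 7, 27100354 to 27102775), of the second pharyngeal arch and hindbrain, had 29.8 and 25.4 CPM in low Wnt, against 0 and 0 CPM in hESC (at least 232-fold higher, adjusted p = 9.2e-11), where the bound takes 3 counts over the group as the floor. HOXB9, a trunk paralogue, had 8.16 and 7.24 CPM in low Wnt, against 0 and 0 CPM in hESC (at least 64.9-fold higher, adjusted p = 9.17e-05). HOXB2 had 5.85 and 5.56 CPM in low Wnt, against 0 and 0.17 CPM in hESC (ratio of low Wnt over hESC 72.1, with 19.7 to 599.9 as the 95% counting interval, adjusted p = 1.22e-08). Per kilobase of exon the mean low Wnt level was 15.5 CPM for HOXA2, 3.56 CPM for HOXB2 and 2.85 CPM for HOXB9, so HOXA2 was highest of these. HOXB3 had 3.41 and 3.23 CPM in low Wnt, against 0 and 0 CPM in hESC (at least 28-fold higher). HOXC4 had 2.01 and 2.69 CPM in low Wnt, against 0 and 0 CPM in hESC (at least 19.8-fold higher), a count that is uncertain because HOXC4, HOXC5 and HOXC6 share exons in human annotation. HOXD4 had 1.83 and 1.02 CPM in low Wnt, against 0 and 0 CPM in hESC (at least 12-fold higher). HOXB5, HOXB6, HOXB7 and HOXB8, between HOXB4 and HOXB9 in the cluster, stayed at or below 0.538 CPM, and HOXC6 and HOXC8 were below 1 CPM in both low Wnt libraries.

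**Figure D3:**
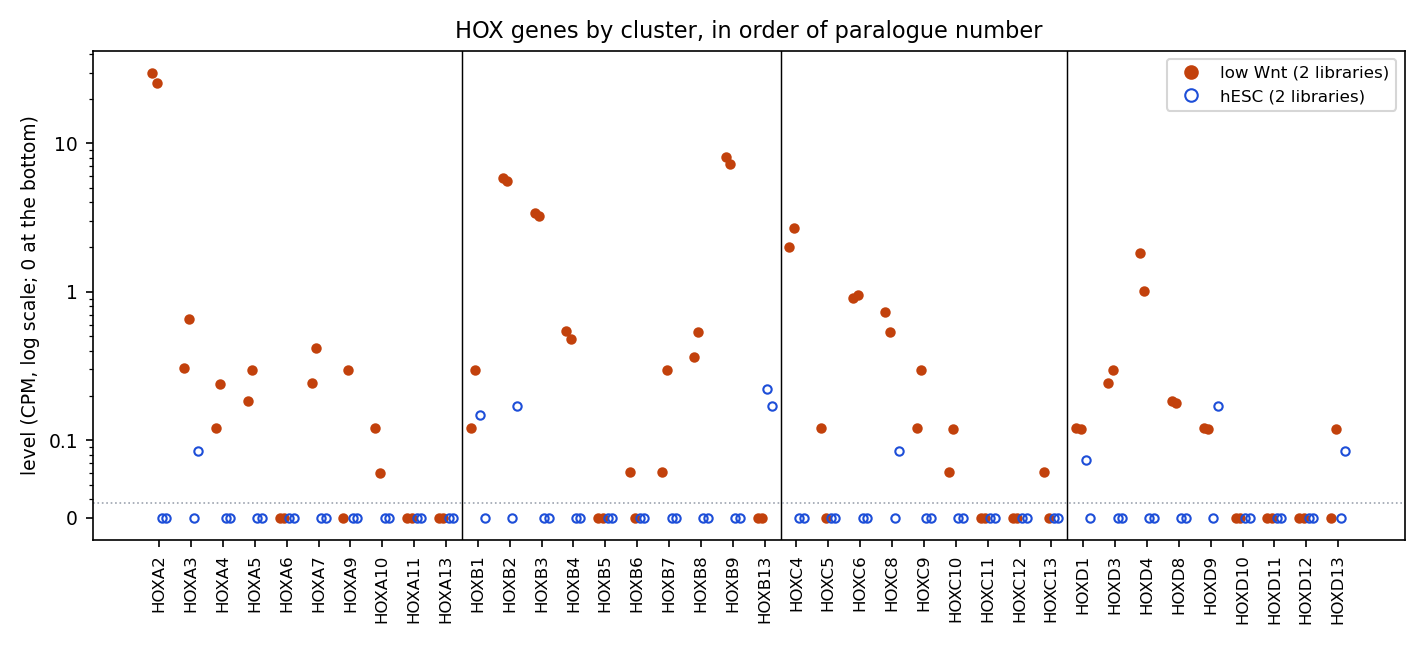
Level of HOX genes in the 2 low Wnt (filled) and 2 hESC (open) libraries, in CPM on a log axis with 0 at the bottom, ordered by cluster and paralogue number. HOXA2 is the highest gene drawn in low Wnt, HOXB9 is the highest paralogue above number 4, and the hESC libraries are at or near 0 throughout.

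Of the 29 HOX genes tested 28 were lower in low Wnt than in high Wnt and 1 was higher. Of all tested genes 19.4% were lower, but nothing is read from that share here, because most of these HOX genes passed the filter through other groups, where they are high. HOXB9 had 8.16 and 7.24 CPM in low Wnt, against 871 and 969 CPM in high Wnt (log2 fold change, low Wnt against high Wnt, -6.90 ± 0.43, adjusted p = 2.99e-09). The exception was HOXA2, with 29.8 and 25.4 CPM in low Wnt, against 12.6 and 16.6 CPM in high Wnt (log2 fold change, low Wnt against high Wnt, 0.92 ± 0.19, adjusted p = 0.00139). Among caudal progenitor genes, 8 of 18 tested rose against hESC and 4 fell. CDX2, a caudal activator of trunk HOX genes, had 1.16 and 1.67 CPM in low Wnt, against 0.074 and 0.0848 CPM in hESC (ratio of low Wnt over hESC 17.9, with 4.7 to 152 as the 95% counting interval). Against the larger dose CDX2 had 1.16 and 1.67 CPM in low Wnt, against 323 and 312 CPM in high Wnt (log2 fold change, low Wnt against high Wnt, -7.80 ± 0.25, adjusted p = 4e-13). TBXT, the brachyury gene, listed in the table under an older symbol, had 0.122 and 0.239 CPM in low Wnt, against 0.74 and 0.339 CPM in hESC. NKX1-2, of caudal neural progenitors, had 0 and 0.0598 CPM in low Wnt, against 14.2 and 18 CPM in hESC (ratio of hESC over low Wnt 529, with 94.5 to 20960 as the 95% counting interval, adjusted p = 8.59e-10).

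Genes in front of the hindbrain did not follow one direction. Of 11 tested forebrain regulators 3 rose, 4 fell and 4 were not called. OTX2, of forebrain and midbrain, had 16.5 and 20.5 CPM in low Wnt, against 33.1 and 37.8 CPM in hESC (log2 fold change -0.93 ± 0.17, adjusted p = 0.000118). FEZF1, a forebrain zinc-finger factor, had 0.67 and 0.478 CPM in low Wnt, against 7.62 and 10.4 CPM in hESC (log2 fold change -3.96). Its paralogue FEZF2 had 4.08 and 3.29 CPM in low Wnt, against 0 and 0.17 CPM in hESC (ratio of low Wnt over hESC 46.6, with 12.6 to 389 as the 95% counting interval). OTX2 and FEZF1 thus fell and FEZF2 rose. SIX6, RAX, NKX2-1 and VAX1, of eye and hypothalamus, had no counts in low Wnt. Of 11 tested genes of the midbrain-hindbrain boundary 8 rose and 1 fell. With the 2 groups alone 8 were tested and 5 rose, and 3 fell without low Wnt 1, 2 without low Wnt 2 and 2 without hESC 1, with DESeq2 or with the replicate number as a block. EN1, EN2 and PAX5, which mark the boundary region, were not tested, and FGF8, its signaling ligand, was not called, although it was called lower with no filter, with the replicate block, with DESeq2 and without low Wnt 1. SPRY1, an FGF feedback inhibitor, fell, with 6.7 and 6.7 CPM in low Wnt, against 30 and 27.7 CPM in hESC (log2 fold change -2.10). WNT1, a ligand of that boundary and the dorsal midline, had 10.4 and 9.93 CPM in low Wnt, against 0 and 0.0848 CPM in hESC (ratio of low Wnt over hESC 257, with 45.9 to 10190 as the 95% counting interval).

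Along the back-to-belly axis, most genes of the intermediate and dorsal neural tube rose, and genes of the ventral tube were low in both groups. Of 8 tested intermediate genes 6 rose and none fell, where 1 fell without hESC 2 (median 4.11, and 1.96 with no filter). DBX1, of interneuron progenitors, had 13.9 and 13.3 CPM in low Wnt, against 0.074 and 0.255 CPM in hESC (log2 fold change 6.35 ± 0.42, adjusted p = 2.14e-09). IRX3, an Iroquois factor, had 38.1 and 34.4 CPM in low Wnt, against 1.48 and 1.78 CPM in hESC (log2 fold change 4.48 ± 0.28, adjusted p = 4.24e-10). Of 14 tested dorsal genes 9 rose and 4 fell (median 2.95). PAX3, of dorsal tube and crest, had 8.59 and 6.64 CPM in low Wnt, against 0 and 0.17 CPM in hESC (ratio of low Wnt over hESC 96.2, with 26.4 to 798 as the 95% counting interval, adjusted p = 4.44e-10). LMX1A, of roof plate, had 5.79 and 5.14 CPM in low Wnt, against 0.074 and 0 CPM in hESC (ratio of low Wnt over hESC 138, with 24.5 to 5486 as the 95% counting interval). OLIG3, of dorsal progenitors, had 14.4 and 14.8 CPM in low Wnt, against 1.55 and 1.36 CPM in hESC (log2 fold change 3.32). The ZIC genes on the list went the other way. ZIC1 had 1.64 and 0.777 CPM in low Wnt, against 3.11 and 3.73 CPM in hESC (log2 fold change -1.49). ZIC2 had 239 and 181 CPM in low Wnt, against 285 and 289 CPM in hESC (log2 fold change -0.45), a call lost without low Wnt 2. Of 5 tested ventral genes 2 rose, where 1 rose without hESC 1, and 3 were not called. FOXA2, of floor plate and endoderm, had 0.975 and 0.837 CPM in low Wnt, against 0.074 and 0.255 CPM in hESC (log2 fold change 2.45 ± 0.82, adjusted p = 0.0134). NKX6-2, of ventral progenitors, had 1.71 and 1.44 CPM in low Wnt, against 0.222 and 0.17 CPM in hESC (log2 fold change 2.94 ± 0.65, adjusted p = 0.000732). These 2 genes rose but stayed below 2 CPM. SHH, NKX2-2 and NKX6-1, of the floor plate and ventral progenitors, had at most 0.179 CPM in low Wnt. Between the doses PAX3 was lower in low Wnt, with 8.59 and 6.64 CPM in low Wnt, against 177 and 169 CPM in high Wnt (log2 fold change, low Wnt against high Wnt, -4.50 ± 0.14, adjusted p = 1.77e-13). PAX6 was higher in low Wnt, with 54.1 and 50 CPM in low Wnt, against 5.98 and 6.67 CPM in high Wnt (log2 fold change, low Wnt against high Wnt, 3.03 ± 0.20, adjusted p = 3.06e-09).

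Retinoic acid, a vitamin A derivative, posteriorizes neural tissue, and genes of its pathway moved in both directions. Of 19 tested members 9 rose, 7 fell and 3 were not called, and 8 rose and 8 fell with the length trend removed. CYP26A1 (chromosome 10, 93073475 to 93077884), the main retinoic acid hydroxylase, had 151 and 138 CPM in low Wnt, against 4.89 and 8.23 CPM in hESC (log2 fold change 4.47 ± 0.24, adjusted p = 8.54e-11). RARB, a retinoic acid receptor that is itself a target, had 83.9 and 83.2 CPM in low Wnt, against 0.222 and 0.255 CPM in hESC (log2 fold change 8.41 ± 0.29, adjusted p = 5.25e-13). CRABP1, a cytosolic carrier, had 1318 and 1161 CPM in low Wnt, against 209 and 267 CPM in hESC (log2 fold change 2.38 ± 0.12, adjusted p = 3.53e-11). In each of these 3 both low Wnt libraries were several times above both hESC libraries. RARA, another retinoic acid receptor, fell, with 14.2 and 13.7 CPM in low Wnt, against 20.1 and 28.2 CPM in hESC (log2 fold change -0.79). RARG, the third of them, fell too, with 49.1 and 48.5 CPM in low Wnt, against 97.9 and 109 CPM in hESC (log2 fold change -1.08). Of the synthesizing enzymes, ALDH1A3 had 1.58 and 2.33 CPM in low Wnt, against 10.7 and 9.93 CPM in hESC (log2 fold change -2.39). ALDH1A1 had 0.0609 and 0.0598 CPM in low Wnt, against 2.0 and 1.19 CPM in hESC (ratio of hESC over low Wnt 26.9, with 6.98 to 229 as the 95% counting interval). ALDH1A2 had at most 0.17 CPM in every library of the 2 groups. DHRS3, a retinal reductase, had 1.95 and 2.81 CPM in low Wnt, against 22.3 and 26.7 CPM in hESC (log2 fold change -3.36). Between the doses CRABP1 was higher in low Wnt, with 1318 and 1161 CPM in low Wnt, against 11.5 and 10.7 CPM in high Wnt (log2 fold change, low Wnt against high Wnt, 6.80 ± 0.15, adjusted p = 2.1e-14).

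The promoters of CYP26A1 and RARB are shown because both genes rose and both hold, near the start site, a direct repeat of the half-site letters bound by retinoic acid receptors (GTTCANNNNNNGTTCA on either strand, in capitals). Sequences are from RefSeq (GRCh38.p14), 5′ to 3′ in the direction of the gene, 250 bases before the start to 50 after.
CYP26A1, chr10:93073643-93073942, plus strand: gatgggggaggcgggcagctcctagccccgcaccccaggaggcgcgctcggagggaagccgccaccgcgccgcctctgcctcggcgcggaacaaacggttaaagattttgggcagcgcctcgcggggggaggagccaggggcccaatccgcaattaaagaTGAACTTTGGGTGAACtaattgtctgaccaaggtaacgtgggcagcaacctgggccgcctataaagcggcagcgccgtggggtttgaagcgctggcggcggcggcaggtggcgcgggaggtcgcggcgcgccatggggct
RARB, chr3:25428013-25428312, plus strand: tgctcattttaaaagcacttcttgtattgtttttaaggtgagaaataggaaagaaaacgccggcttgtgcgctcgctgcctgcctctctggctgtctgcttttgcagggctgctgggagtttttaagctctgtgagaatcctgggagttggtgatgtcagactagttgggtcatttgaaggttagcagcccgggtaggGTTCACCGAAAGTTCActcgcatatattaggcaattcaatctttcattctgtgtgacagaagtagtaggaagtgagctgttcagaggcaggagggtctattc
The repeat was found in 20 of 35116 promoters of this length (0.057%). Among 34 promoters of 17 genes on the retinoic acid list it was found in these 2 promoters.

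Some targets of beta-catenin were higher at day 5, after CHIR99021 treatment had ended at hour 72. Of 19 tested targets 10 rose, 3 fell and 6 were not called (median 1.05, and 1.77 without hESC 2), and 5 fell with the length trend removed. AXIN2, a negative feedback scaffold, had 64.4 and 78.9 CPM in low Wnt, against 37.2 and 35.8 CPM in hESC (log2 fold change 0.97 ± 0.14, adjusted p = 1.38e-05). LEF1, the transcriptional partner of beta-catenin, had 13.9 and 12.7 CPM in low Wnt, against 0.888 and 1.02 CPM in hESC (log2 fold change 3.80 ± 0.22, adjusted p = 1.58e-10). CCND1, cyclin D1, had 864 and 855 CPM in low Wnt, against 206 and 209.7 CPM in hESC (log2 fold change 2.05 ± 0.089, adjusted p = 6.14e-12). NOTUM, a secreted feedback inhibitor, rose too, with 4.02 and 2.99 CPM in low Wnt, against 0.592 and 0.509 CPM in hESC (log2 fold change 2.65). MYC fell, with 36.9 and 44.8 CPM in low Wnt, against 121 and 138 CPM in hESC (log2 fold change -1.66). BAMBI, a decoy receptor of BMP signaling, fell as well, with 4.81 and 5.5 CPM in low Wnt, against 33.5 and 37.5 CPM in hESC (log2 fold change -2.78). SP5, RNF43, ZNRF3 and LGR5 were not called, and SP5 had 1.34 and 1.97 CPM in low Wnt, against 0.444 and 1.19 CPM in hESC. Between the doses LEF1 was lower in low Wnt, with 13.9 and 12.7 CPM in low Wnt, against 294 and 247 CPM in high Wnt (log2 fold change, low Wnt against high Wnt, -4.34 ± 0.13, adjusted p = 1.42e-13). AXIN2 was higher in low Wnt, with 64.4 and 78.9 CPM in low Wnt, against 48.7 and 42.6 CPM in high Wnt (log2 fold change, low Wnt against high Wnt, 0.65 ± 0.14, adjusted p = 0.00152).

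Of 15 tested Wnt ligands 11 rose, 1 fell and 3 were not called (median 1.72). With DESeq2 9 rose. Without low Wnt 1, low Wnt 2 or hESC 1 fewer rose than in the main fit, and without low Wnt 2 more fell. WNT3A, a canonical ligand of dorsal midline and tail bud, had 17.9 and 16 CPM in low Wnt, against 0.074 and 0.424 CPM in hESC (log2 fold change 6.11). WNT10B had 5.42 and 5.32 CPM in low Wnt, against 0.296 and 0.0848 CPM in hESC (log2 fold change 4.71). WNT7A had 3.71 and 3.95 CPM in low Wnt, against 0 and 0.0848 CPM in hESC (ratio of low Wnt over hESC 96.9, with 17.1 to 3858 as the 95% counting interval). These ligands were near 0 in hESC and stayed below 20 CPM in low Wnt. Among 30 tested receptors and modulators 13 rose and 10 fell. FZD3, a receptor of neural tissue, had 382 and 388 CPM in low Wnt, against 61 and 50.8 CPM in hESC (log2 fold change 2.78). FZD5, of stem cells and eye, had 27.7 and 30.4 CPM in low Wnt, against 114 and 91.2 CPM in hESC (log2 fold change -1.82). SFRP4, a secreted inhibitor, had 59.7 and 72.4 CPM in low Wnt, against 0.074 and 0 CPM in hESC (ratio of low Wnt over hESC 1671, with 299.7 to 66050 as the 95% counting interval). SFRP5, its relative, fell, with 0.244 and 0.299 CPM in low Wnt, against 5.11 and 6.02 CPM in hESC (log2 fold change -4.32).

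NODAL and its partners nearly vanished. Over the nodal and TGF-beta list 13 of 33 tested genes rose and 16 fell (median -0.43, -0.27 without low Wnt 1 and -0.76 without low Wnt 2). With the length trend removed 10 rose and 18 fell (median -0.97). NODAL, the ligand that sustains human pluripotency, had 0 and 0.179 CPM in low Wnt, against 12.5 and 15.9 CPM in hESC (ratio of hESC over low Wnt 156, with 52.8 to 758 as the 95% counting interval, adjusted p = 2.08e-09). GDF3, its partner ligand, had 0 and 0.0598 CPM in low Wnt, against 11 and 18 CPM in hESC (ratio of hESC over low Wnt 473, with 84.4 to 18730 as the 95% counting interval, adjusted p = 1.12e-07). LEFTY1, its secreted inhibitor, had 0.426 and 0.12 CPM in low Wnt, against 12.7 and 19.4 CPM in hESC (log2 fold change -5.83 ± 0.39, adjusted p = 1.23e-09). All hESC libraries of these genes were above 10 CPM and all low Wnt libraries below 0.5 CPM. TGFBR3, the co-receptor betaglycan, rose, with 157 and 156 CPM in low Wnt, against 8.73 and 7.3 CPM in hESC (log2 fold change 4.28 ± 0.12, adjusted p = 4.34e-14). SMAD3, the signal transducer, rose too, with 148 and 138 CPM in low Wnt, against 19.2 and 16.9 CPM in hESC (log2 fold change 2.99 ± 0.12, adjusted p = 3.69e-12). TGFBR1 had 264 and 299.5 CPM in low Wnt, against 83.1 and 64.1 CPM in hESC (log2 fold change 1.94). Its partner TGFBR2 fell, with 4.38 and 4.78 CPM in low Wnt, against 17.6 and 16.8 CPM in hESC (log2 fold change -1.91). SKIL, a feedback repressor, had 25.3 and 35.2 CPM in low Wnt, against 259 and 182 CPM in hESC (log2 fold change -2.87).

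In the BMP list 15 of 25 tested genes rose and 5 fell (median 1.5). BMP5 had 47.4 and 46.2 CPM in low Wnt, against 0.222 and 0 CPM in hESC (ratio of low Wnt over hESC 395, with 135 to 1915 as the 95% counting interval, adjusted p = 4.67e-12). BMP7, of dorsal ectoderm and roof plate, had 139 and 133 CPM in low Wnt, against 13.8 and 14.2 CPM in hESC (log2 fold change 3.28 ± 0.11, adjusted p = 3.56e-13). BMP4 fell, with 4.45 and 4.19 CPM in low Wnt, against 6.88 and 10.9 CPM in hESC (log2 fold change -1.03). CHRD, the secreted antagonist chordin, rose, with 18 and 13.8 CPM in low Wnt, against 1.33 and 2.46 CPM in hESC (log2 fold change 3.08). The target ID2 had 156 and 187 CPM in low Wnt, against 31.7 and 34 CPM in hESC (log2 fold change 2.38), while ID3 was not called.

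Among FGF ligands and receptors 9 of 22 tested rose and 8 fell. FGFR3, a receptor of ventricular zone progenitors, had 1038 and 1063 CPM in low Wnt, against 34.2 and 38.4 CPM in hESC (log2 fold change 4.86 ± 0.13, adjusted p = 3.56e-14). FGFR2 had 259 and 272 CPM in low Wnt, against 114 and 99.5 CPM in hESC (log2 fold change 1.31). FGFR4 fell, with 37.5 and 37.9 CPM in low Wnt, against 128 and 176 CPM in hESC (log2 fold change -2.01). FGF2, the growth factor of stem cell culture, had 79.1 and 84.8 CPM in low Wnt, against 277 and 194 CPM in hESC (log2 fold change -1.52). FGF19 had 0.122 and 0.478 CPM in low Wnt, against 22.3 and 29.4 CPM in hESC (log2 fold change -6.38). Most genes that report ERK activity fell, 12 of 19 tested being lower and 4 higher (median -1.72). ETV4, an ETS factor induced by FGF, had 3.47 and 4.25 CPM in low Wnt, against 217 and 256 CPM in hESC (log2 fold change -5.93 ± 0.19, adjusted p = 2.27e-13). SPRY4, a feedback inhibitor, had 5.05 and 4.78 CPM in low Wnt, against 185 and 182 CPM in hESC (log2 fold change -5.22 ± 0.23, adjusted p = 8.02e-12). IL17RD, the inhibitor SEF, had 8.89 and 8.31 CPM in low Wnt, against 99.3 and 96.1 CPM in hESC (log2 fold change -3.50 ± 0.18, adjusted p = 4.33e-11). In all 3 the low Wnt libraries held under 10% of the hESC level. EGR1, an immediate early gene, ran against the list, with 210.1 and 124 CPM in low Wnt, against 50.1 and 37.8 CPM in hESC (log2 fold change 1.92). FOS, another such gene, had 67.4 and 29.1 CPM in low Wnt, against 25.5 and 21.5 CPM in hESC and was not called, though it was called higher under 6 of the alternative settings tried. Between the doses ETV4 was lower in low Wnt, with 3.47 and 4.25 CPM in low Wnt, against 36.1 and 34.8 CPM in high Wnt (log2 fold change, low Wnt against high Wnt, -3.19 ± 0.19, adjusted p = 6.94e-10).

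Of 23 tested Notch genes 16 rose and 4 fell (median 0.72). JAG1, a ligand, had 325 and 271 CPM in low Wnt, against 43.7 and 42 CPM in hESC (log2 fold change 2.80 ± 0.19, adjusted p = 1.43e-09). DLL1, the ligand of early neurogenesis, had 22 and 13.2 CPM in low Wnt, against 0.148 and 0 CPM in hESC (ratio of low Wnt over hESC 222, with 61.2 to 1838 as the 95% counting interval, adjusted p = 1.21e-05). HES4, a repressor of the Notch target family, had 82.6 and 43 CPM in low Wnt, against 0.518 and 0.849 CPM in hESC (log2 fold change 6.53). DLL1 and HES4 were higher in low Wnt 1 than in low Wnt 2. HES5, a main neural target, was low, with 1.46 and 0.957 CPM in low Wnt, against 0 and 0 CPM in hESC, and was no longer called without hESC 1. HEY2 fell, with 0.792 and 0.658 CPM in low Wnt, against 20.6 and 26.1 CPM in hESC (log2 fold change -4.99). In the hedgehog pathway 7 of 13 tested genes rose and 3 fell. BOC, a co-receptor, had 221 and 189.7 CPM in low Wnt, against 6.81 and 8.91 CPM in hESC (log2 fold change 4.71 ± 0.15, adjusted p = 1.85e-13). PTCH1, the receptor and a target, had 228 and 217 CPM in low Wnt, against 39.6 and 36.4 CPM in hESC (log2 fold change 2.55 ± 0.11, adjusted p = 6.25e-12). GLI1, a target, had 4.26 and 5.62 CPM in low Wnt, against 31.3 and 34.4 CPM in hESC (log2 fold change -2.73 ± 0.21, adjusted p = 8.01e-09). BOC and PTCH1 thus rose and GLI1 fell.

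All tested genes of the epithelial list fell. All 32 listed genes of epithelial junctions and their regulators passed the filter, and 32 were called lower (median -3.54), where 35.6% of all tested genes fell, and 29 to 31 were called lower in fits without 1 of the 4 libraries. CDH1, E-cadherin (chromosome 16, 68737292 to 68835541), had 10.3 and 12.6 CPM in low Wnt, against 352 and 328 CPM in hESC (log2 fold change -4.89 ± 0.16, adjusted p = 2.82e-13). EPCAM, an epithelial adhesion molecule, had 11.3 and 14.4 CPM in low Wnt, against 300.3 and 266 CPM in hESC (log2 fold change -4.46 ± 0.19, adjusted p = 4.92e-12). CLDN7, of tight junctions, had 1.83 and 1.67 CPM in low Wnt, against 139 and 171 CPM in hESC (log2 fold change -6.46). These junction genes kept at most a few percent of their stem cell level. GRHL2, a regulator of epithelial genes, had 0.183 and 0.718 CPM in low Wnt, against 46.1 and 46.2 CPM in hESC (log2 fold change -6.65 ± 0.36, adjusted p = 2.46e-10). OVOL2, another, had 0.0609 and 0 CPM in low Wnt, against 10.7 and 10.9 CPM in hESC (ratio of hESC over low Wnt 359, with 63.9 to 14230 as the 95% counting interval, adjusted p = 2.29e-09). The epithelial splicing regulator ESRP1 had 4.75 and 8.67 CPM in low Wnt, against 219 and 229 CPM in hESC (log2 fold change -5.06 ± 0.23, adjusted p = 1.06e-11). RBM47, an RNA-binding protein also on the splicing list, had 0.609 and 0.478 CPM in low Wnt, against 104 and 97.7 CPM in hESC (log2 fold change -7.51 ± 0.27, adjusted p = 6.81e-13). The smallest fall was that of TJP3, a tight junction scaffold, with 19.6 and 17.9 CPM in low Wnt, against 23.7 and 27.1 CPM in hESC (log2 fold change -0.44), whose call was lost in each fit without 1 of the 4 libraries.

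Among regulators of the epithelial-to-mesenchymal transition the ZEB genes, which encode E-box-binding repressors of CDH1, rose most. Over that list, which also holds genes of mesenchyme, 8 of 18 tested rose and 7 fell. ZEB2 (chromosome 2, 144384375 to 144520391) had 262 and 274 CPM in low Wnt, against 0.222 and 0.339 CPM in hESC (log2 fold change 9.88 ± 0.23, adjusted p = 1.14e-14). ZEB1 had 35.7 and 38.2 CPM in low Wnt, against 0.074 and 0.255 CPM in hESC (log2 fold change 7.79 ± 0.28, adjusted p = 6.93e-13). Both were below 0.4 CPM in hESC. SNAI1, a SNAI-family repressor of CDH1, had 3.9 and 6.28 CPM in low Wnt, against 6.51 and 11.3 CPM in hESC (log2 fold change -0.80 ± 0.30, adjusted p = 0.024), a call lost without low Wnt 1, without hESC 2 and with the length trend removed. SNAI3 fell, with 1.03 and 0.598 CPM in low Wnt, against 12.5 and 17.1 CPM in hESC (log2 fold change -4.17). TWIST2 fell, with 0.731 and 0.777 CPM in low Wnt, against 2.81 and 3.22 CPM in hESC (log2 fold change -1.99). Genes of mesenchyme moved in both directions. VIM, vimentin, had 1851 and 1791 CPM in low Wnt, against 555 and 683 CPM in hESC (log2 fold change 1.56). ACTA2, smooth muscle actin, had 31.5 and 28.1 CPM in low Wnt, against 3.11 and 3.99 CPM in hESC (log2 fold change 3.08). TAGLN, a smooth muscle protein, fell, with 148 and 178 CPM in low Wnt, against 338 and 504 CPM in hESC (log2 fold change -1.37). SPARC and TNC were not called. Over cadherins, 18 of 28 tested rose and 6 fell (median 1.53). CDH2, N-cadherin, had 524 and 574 CPM in low Wnt, against 108 and 104 CPM in hESC (log2 fold change 2.37 ± 0.096, adjusted p = 2.32e-12). CDH6, of neural plate border and early crest, had 25.6 and 27.9 CPM in low Wnt, against 2.44 and 3.14 CPM in hESC (log2 fold change 3.27). CDH3, P-cadherin, had 11.8 and 13 CPM in low Wnt, against 268 and 314 CPM in hESC (log2 fold change -4.55). CDH2 and CDH6 thus rose while CDH3 fell, as CDH1 did. Between the doses CDH1 was higher in low Wnt, with 10.3 and 12.6 CPM in low Wnt, against 0.499 and 0.413 CPM in high Wnt (log2 fold change, low Wnt against high Wnt, 4.64 ± 0.31, adjusted p = 2.71e-09). ZEB1 was lower in low Wnt, with 35.7 and 38.2 CPM in low Wnt, against 94.2 and 105 CPM in high Wnt (log2 fold change, low Wnt against high Wnt, -1.43 ± 0.12, adjusted p = 7.02e-08).

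Promoters of 2 epithelial genes that fell are shown because each holds more than 1 copy of the E-box CACCTG, the letters that ZEB and SNAI proteins bind, in capitals on either strand. CRB3, of the apical Crumbs complex, had 0.548 and 0.478 CPM in low Wnt, against 15.5 and 17.8 CPM in hESC (log2 fold change -5.00 ± 0.40, adjusted p = 1.15e-08). RAB25, of apical recycling, had 3.17 and 2.09 CPM in low Wnt, against 24 and 26.6 CPM in hESC (log2 fold change -3.26 ± 0.26, adjusted p = 1.08e-08). Sequences are from RefSeq (GRCh38.p14), 5′ to 3′ in the direction of the gene.
CRB3, chr19:6464021-6464320, plus strand: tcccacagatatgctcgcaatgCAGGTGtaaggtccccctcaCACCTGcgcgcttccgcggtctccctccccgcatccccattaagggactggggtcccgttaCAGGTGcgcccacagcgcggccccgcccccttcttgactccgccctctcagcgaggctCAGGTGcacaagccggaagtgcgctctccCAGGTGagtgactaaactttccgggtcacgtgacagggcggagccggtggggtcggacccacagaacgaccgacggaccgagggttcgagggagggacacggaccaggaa
RAB25, chr1:156060910-156061209, plus strand: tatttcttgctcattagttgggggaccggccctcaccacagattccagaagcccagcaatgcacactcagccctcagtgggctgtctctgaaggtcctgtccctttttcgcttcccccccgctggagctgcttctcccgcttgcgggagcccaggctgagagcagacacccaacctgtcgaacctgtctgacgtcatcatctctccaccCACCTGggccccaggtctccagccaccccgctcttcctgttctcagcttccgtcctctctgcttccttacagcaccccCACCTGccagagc
The CRB3 window held 5 matches and the RAB25 window 2. Of all 35116 promoters 20.6% held at least 1 match and 3.49% held 2 or more. The promoter set held 18 of the 32 genes of the epithelial list, and the others were not searched. Of the 25 promoters of these 18 genes, 15 (60.0%) held at least 1 and 9 (36.0%) held 2 or more.

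Adhesion and guidance genes changed in both directions. Of 22 tested ephrins and Eph receptors 12 rose and 9 fell. EFNB2, a ligand of hindbrain and crest boundaries, had 409.8 and 386 CPM in low Wnt, against 24.4 and 25.8 CPM in hESC (log2 fold change 3.99). EFNB1 had 157 and 155 CPM in low Wnt, against 4.52 and 6.87 CPM in hESC (log2 fold change 4.79). EPHA1, of epithelia, fell, with 3.17 and 3.89 CPM in low Wnt, against 208 and 235 CPM in hESC (log2 fold change -5.97). Of 32 tested slits, netrins, semaphorins and their receptors 16 rose and 11 fell, but 13 rose and 15 fell with the length trend removed. SLIT1, a midline repellent, had 58.2 and 56.5 CPM in low Wnt, against 1.78 and 2.38 CPM in hESC (log2 fold change 4.79). SEMA5A had 147 and 157 CPM in low Wnt, against 16 and 12.6 CPM in hESC (log2 fold change 3.40). UNC5D, a netrin receptor, had 8.34 and 10.5 CPM in low Wnt, against 84 and 60.9 CPM in hESC (log2 fold change -2.94). Of 34 tested collagens 15 rose and 13 fell. COL2A1, of cartilage and notochord and also of early neural tissue, had 320.1 and 338 CPM in low Wnt, against 27.4 and 32.6 CPM in hESC (log2 fold change 3.46). COL5A3 had 82.6 and 80 CPM in low Wnt, against 3.77 and 3.48 CPM in hESC (log2 fold change 4.48). COL8A2 had 0.183 and 0.12 CPM in low Wnt, against 6.22 and 7.64 CPM in hESC (log2 fold change -5.44). Of 28 tested integrins and laminins 8 rose and 11 fell, but 7 rose and 15 fell with the length trend removed. ITGB8, a TGF-beta-activating integrin of neuroepithelium, had 99.3 and 104 CPM in low Wnt, against 5.26 and 2.63 CPM in hESC (log2 fold change 4.66). ITGB5 had 53.8 and 55.3 CPM in low Wnt, against 372 and 458 CPM in hESC (log2 fold change -2.93).

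Among cell cycle genes the 12 that fell act in DNA replication or its onset, and several mitotic ones rose. Of 25 tested genes of replication and mitosis 12 fell, 6 rose and 7 were not called. Among those not called were the mitotic genes CCNB1, AURKA, AURKB, PLK1 and BUB1. MCM5, a replicative helicase subunit, had 123 and 132 CPM in low Wnt, against 360.2 and 484 CPM in hESC (log2 fold change -1.73 ± 0.12, adjusted p = 2.86e-09). CCNE1, cyclin E1, had 15.3 and 16.6 CPM in low Wnt, against 53.4 and 56.4 CPM in hESC (log2 fold change -1.78). CENPF, of kinetochores, had 921 and 880.0 CPM in low Wnt, against 321 and 188 CPM in hESC (log2 fold change 1.82 ± 0.19, adjusted p = 2.74e-07). MKI67, the Ki-67 antigen, had 576 and 481 CPM in low Wnt, against 249 and 157 CPM in hESC (log2 fold change 1.38). CENPF and MKI67 were higher in hESC 1 than in hESC 2 but above both in low Wnt. Of 14 tested cell cycle inhibitors, growth arrest genes and D cyclins 11 rose and 1 fell (median 1.16, and 0.88 without low Wnt 1). Fewer rose without low Wnt 1 or hESC 1, and more fell without low Wnt 1, low Wnt 2 or hESC 2. BTG2, an antiproliferative p53 target, had 138 and 118 CPM in low Wnt, against 10.8 and 9.59 CPM in hESC (log2 fold change 3.64 ± 0.17, adjusted p = 1.33e-11). CDKN2C, the CDK4 and CDK6 inhibitor p18, had 1.77 and 0.897 CPM in low Wnt, against 0 and 0 CPM in hESC (at least 11.2-fold higher, adjusted p = 5.8e-05). CCND3 fell, with 17 and 14.4 CPM in low Wnt, against 38.1 and 53 CPM in hESC (log2 fold change -1.53). Of 19 tested p53 target and apoptosis genes 7 rose and 7 fell. PMAIP1, the NOXA protein, had 4.93 and 5.26 CPM in low Wnt, against 126 and 112 CPM in hESC (log2 fold change -4.54 ± 0.14, adjusted p = 1.1e-13). BCL2, an inhibitor of cell death, had 49.6 and 45.2 CPM in low Wnt, against 9.99 and 7.38 CPM in hESC (log2 fold change 2.44).

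Genes of glycolysis, serine and folate metabolism, cholesterol synthesis and protein folding fell in most cases. Of 22 tested genes of glycolysis 17 fell and 3 rose (median -0.68). HK1, hexokinase 1, had 88.4 and 96.3 CPM in low Wnt, against 566 and 588 CPM in hESC (log2 fold change -2.64 ± 0.11, adjusted p = 2.32e-12). PGAM1, a phosphoglycerate mutase, had 196 and 249 CPM in low Wnt, against 678 and 879 CPM in hESC (log2 fold change -1.81). SLC16A3, a lactate exporter, rose, with 33.1 and 29.6 CPM in low Wnt, against 17.6 and 21.3 CPM in hESC (log2 fold change 0.69). Of 18 tested serine, glycine and folate enzymes and carriers 15 fell and 1 rose (median -1.49). SLC7A5, a carrier of large amino acids, had 54.6 and 67 CPM in low Wnt, against 828 and 1008 CPM in hESC (log2 fold change -3.92 ± 0.19, adjusted p = 2.72e-11). PHGDH, the first enzyme of serine synthesis, had 223 and 234 CPM in low Wnt, against 873 and 1050 CPM in hESC (log2 fold change -2.07 ± 0.11, adjusted p = 5.37e-11). ATF4, the activator of such genes in amino acid stress, had 219 and 264 CPM in low Wnt, against 621 and 767 CPM in hESC (log2 fold change -1.52 ± 0.16, adjusted p = 2.51e-07). In all 3 both low Wnt libraries lay far below both hESC libraries. Of 17 tested heat shock and unfolded protein genes 13 fell and none rose (median -1.15), where 1 rose with the 2 groups alone or with the length trend removed. HSPA8, a constitutive chaperone, had 693 and 605 CPM in low Wnt, against 2573 and 2968 CPM in hESC (log2 fold change -2.09 ± 0.17, adjusted p = 1.02e-08). CHAC1, an ATF4 target, had 1.1 and 1.55 CPM in low Wnt, against 26.6 and 37.6 CPM in hESC (log2 fold change -4.59). Of 21 tested cholesterol synthesis genes 14 fell and 1 rose (median -0.58), where none rose without low Wnt 1, low Wnt 2 or hESC 2 and 2 rose without hESC 1.

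Chromatin and RNA regulators changed subunit by subunit. Of 22 tested genes of DNA methylation and Polycomb complexes 12 rose and 6 fell. DNMT3B, a de novo DNA methyltransferase high in stem cells, had 241 and 259.8 CPM in low Wnt, against 2026 and 2189 CPM in hESC (log2 fold change -3.07 ± 0.096, adjusted p = 1.68e-13). TET2, which oxidizes methylcytosine, had 19.4 and 18.1 CPM in low Wnt, against 2.81 and 3.22 CPM in hESC (log2 fold change 2.64). EZH2, a catalytic subunit of Polycomb complex 2, had 187 and 178 CPM in low Wnt, against 81.7 and 80.4 CPM in hESC (log2 fold change 1.17). JARID2, an accessory subunit of that complex, fell, with 143 and 145 CPM in low Wnt, against 581 and 541 CPM in hESC (log2 fold change -1.96). PHC1, of Polycomb complex 1, fell, with 102 and 122 CPM in low Wnt, against 768 and 614 CPM in hESC (log2 fold change -2.63). Of 21 tested BAF remodeler subunits 10 rose and 6 fell, where 3 fell without hESC 2. DPF3, a subunit of neural and muscle forms, had 0.731 and 0.718 CPM in low Wnt, against 0 and 0 CPM in hESC (at least 6.11-fold higher). BCL11A had 1.28 and 0.957 CPM in low Wnt, against 27.5 and 29 CPM in hESC (log2 fold change -4.65). Of 25 tested splicing regulators 13 rose and 8 fell. PTBP1, which represses neuronal exons, had 445 and 463 CPM in low Wnt, against 858 and 1022 CPM in hESC (log2 fold change -1.05). Its neural paralogue PTBP2 had 106 and 114 CPM in low Wnt, against 62 and 56.1 CPM in hESC (log2 fold change 0.89). RBM24 had 16.6 and 15.7 CPM in low Wnt, against 0.37 and 0.0848 CPM in hESC (log2 fold change 6.05). PTBP1 was lower and PTBP2 and RBM24 higher in both low Wnt libraries.

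Of 12 tested LIN28 and oncofetal genes 8 rose and 2 fell (median 0.45), and 1 of the rises reached a log2 fold change of 1. With the length trend removed 6 rose and 2 fell (median 0.19). HMGA2, a chromatin protein repressed by let-7, had 805 and 758 CPM in low Wnt, against 246 and 225 CPM in hESC (log2 fold change 1.73). HMGA1 had 1679 and 1675 CPM in low Wnt, against 3348 and 4280 CPM in hESC (log2 fold change -1.19). Of 18 tested imprinted genes 14 rose and 2 fell (median 1.33), where 1 fell without low Wnt 1, without hESC 2 or with the length trend removed. IGF2, a growth factor expressed from the paternal copy, had 11.6 and 10.2 CPM in low Wnt, against 0 and 0 CPM in hESC (at least 92.1-fold higher, adjusted p = 3.19e-09), though it shares exons with the read-through gene INS-IGF2. DLK1, a paternally expressed relative of Notch ligands, had 232 and 187 CPM in low Wnt, against 0.296 and 1.87 CPM in hESC (log2 fold change 7.65 ± 0.29, adjusted p = 1.19e-12). H19, the maternally expressed RNA beside IGF2, had 6.46 and 6.46 CPM in low Wnt, against 0.444 and 0.255 CPM in hESC (log2 fold change 4.15). GRB10 fell, with 80.2 and 84.7 CPM in low Wnt, against 181 and 191 CPM in hESC (log2 fold change -1.18).

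**Figure D4:**
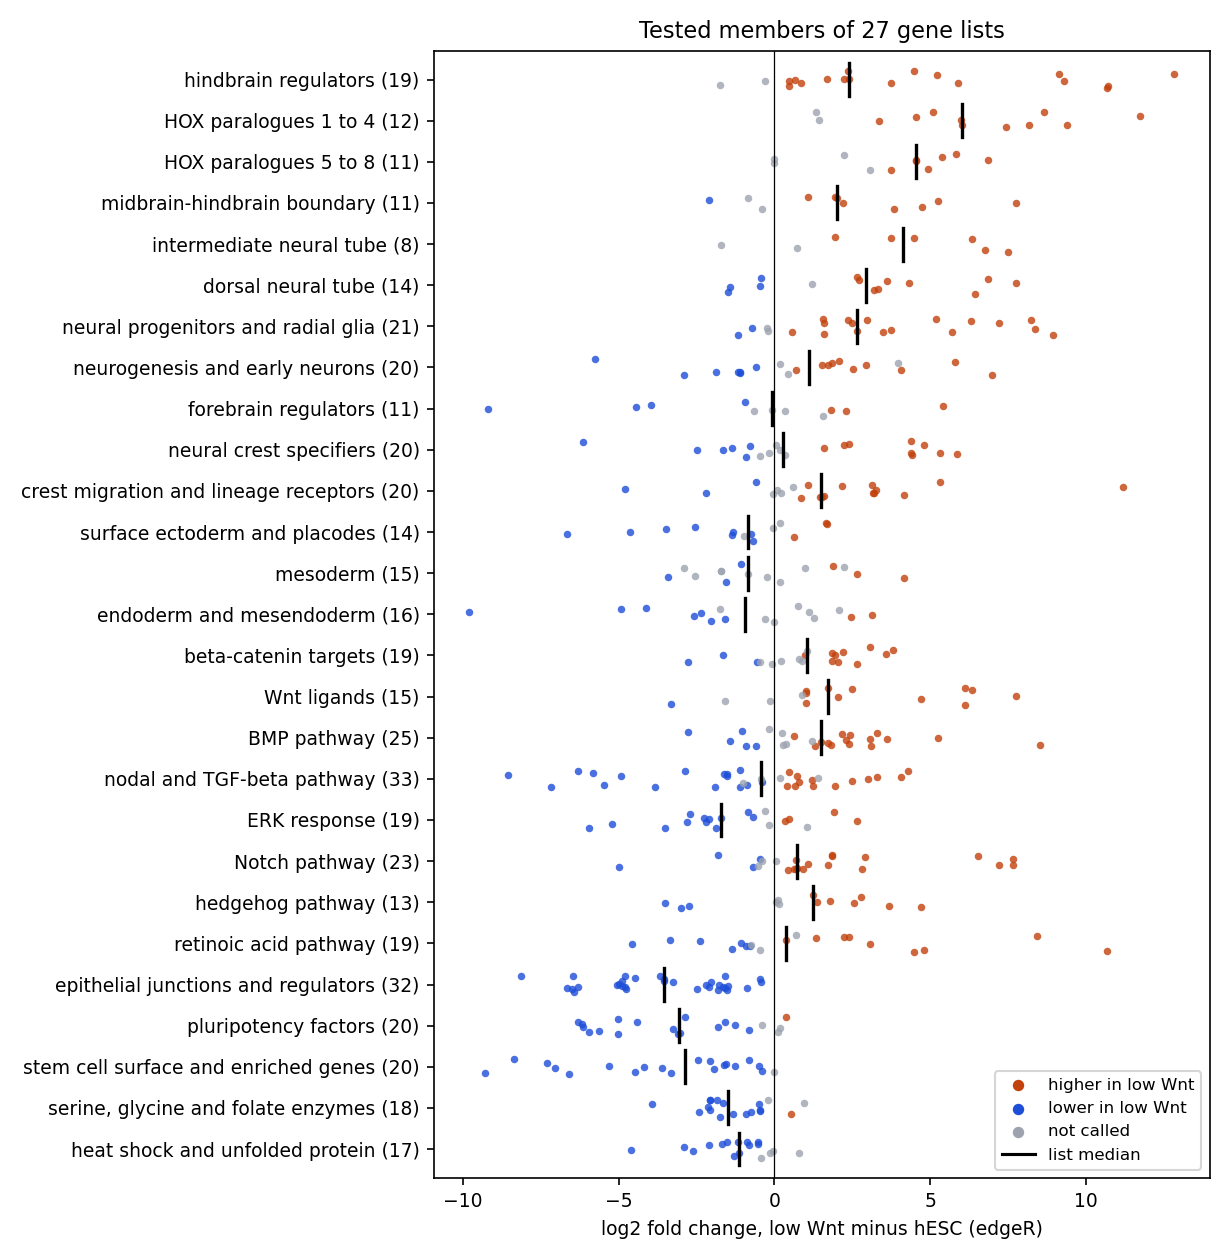
Log2 fold change, low Wnt over hESC, of each tested member of 27 gene lists (number tested in brackets), with the list median as a black bar; red is higher in low Wnt, blue lower and grey not called. Values are as fitted, also for genes with no counts in 1 group. The epithelial list lies entirely below 0, hindbrain regulators and neural progenitors lie mostly above it, and neural crest specifiers lie on both sides.

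Several markers of other cell types were at or near 0. TP63, KRT5 and KRT14, of stratified surface ectoderm, MESP1, of early mesoderm, HNF4A, of endoderm, GATA1, SPI1 and PTPRC, of blood, and CGA, ELF5 and VGLL1, of trophoblast, had at most 0.548 CPM in low Wnt. KRT5, KRT14, GATA1, CGA, ELF5 and VGLL1 had no counts in either group. These markers are a selection, MESP1 was not tested, and none of the mesoderm or endoderm genes called higher is among them. The genes called higher were FOXC2, TBX1 and MEOX1 of the mesoderm list and FOXA2 and CXCR4 of the endoderm list. In each list 1 gene rose by a log2 fold change of at least 3. Of 15 tested mesoderm genes 3 rose and 3 fell, where 1 fell without low Wnt 2, and the summed level of all 20 listed was 12.1 and 9.93 CPM in low Wnt, against 12.1 and 12.6 CPM in hESC. Of 16 tested endoderm and mesendoderm genes 2 rose, where 1 rose without hESC 1, and 7 fell, with a sum over the 17 listed of 26.7 and 28.4 CPM in low Wnt, against 43.7 and 58 CPM in hESC. Of 14 tested surface ectoderm and placode genes 3 rose and 8 fell, where 1 rose without low Wnt 2 or without hESC 2, with a sum over the 20 listed of 379.8 and 401 CPM in low Wnt, against 1101 and 1444 CPM in hESC. The largest single part of that sum was KRT8, a keratin of simple epithelia, with 192 and 213 CPM in low Wnt, against 428 and 615 CPM in hESC (log2 fold change -1.36). Of 10 tested endothelial and blood genes 1 rose and 5 fell. KDR, a receptor of vascular growth factor that stem cells also express, had 3.65 and 3.17 CPM in low Wnt, against 188 and 166 CPM in hESC (log2 fold change -5.69). TEK, an endothelial receptor, rose, with 167 and 173 CPM in low Wnt, against 95 and 84.5 CPM in hESC (log2 fold change 0.92), while PECAM1 and CDH5, which define endothelium, stayed at or below 0.478 CPM in low Wnt. Of 10 tested trophoblast and amnion genes 5 rose and 5 fell. GATA3, of trophoblast and amnion as well as border, had 2.38 and 3.71 CPM in low Wnt, against 0.74 and 0.764 CPM in hESC (log2 fold change 2.01). The part of other cell types in the results above was not tested.

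Fold changes ran with gene length. In 5 groups of near-equal size of tested genes from the shortest to the longest exon length the median log2 fold change was -0.41, -0.21, -0.035, 0.18 and 0.50. Between the hESC libraries the medians of hESC 2 over hESC 1 ran the other way, at 0.11, 0.11, 0.033, -0.058 and -0.21. Between the low Wnt libraries they lay between -0.057 and 0.024. With the trend removed 11422 genes were called, 10275 of them among the 11535.

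Families of short genes depended on it, and 2 families of longer genes hardly changed. Median exon length was 887 bases for ribosomal protein genes and 955 for respiratory chain and ATP synthase genes. It was 3493 for ZNF genes and 3366 for solute carriers, against 3214 over all tested genes. Of 79 tested ribosomal protein genes 6 rose and 32 fell (median -0.23), but 37 rose and 17 fell with the trend removed (median 0.14), so no direction is given for them. Of 78 tested genes of the respiratory chain and ATP synthase 3 rose and 56 fell (median -0.79), and 8 rose and 49 fell with the trend removed (median -0.39). Of 503 tested zinc-finger genes named ZNF 278 rose and 59 fell (median 0.58), and 275 rose and 65 fell with the trend removed (median 0.57). Of 280 tested solute carriers 68 rose and 134 fell, and 67 rose and 135 fell with the trend removed. For the epithelial list the median was -3.27 with the trend removed, and for hindbrain regulators 2.37.

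Of the 15 largest rises among called genes that averaged 10 CPM or more in either of the groups, 13 were also higher in low Wnt than in high Wnt and 2, GREB1L and IGF2, were not called between the doses, while 19.1% of all tested genes were higher. The 15 were chosen on the same low Wnt libraries, so this count is a description. MMRN1, which encodes multimerin 1, had 54 and 59.1 CPM in low Wnt and 0.914 and 0.894 CPM in high Wnt, against 0 and 0 CPM in hESC (low Wnt over hESC, at least 477-fold higher). RFX4, a factor of neural tube patterning, had 132 and 128 CPM in low Wnt and 36.8 and 42.4 CPM in high Wnt, against 0.37 and 0.255 CPM in hESC (low Wnt over hESC, log2 fold change 8.65). Among the largest rises in CPM, VGLL3, a cofactor of TEAD factors, had 1257 and 1302 CPM in low Wnt and 28.8 and 32.3 CPM in high Wnt, against 22.4 and 14.8 CPM in hESC (low Wnt over hESC, log2 fold change 6.10). PRTG, protogenin, an adhesion molecule of early neural tube and mesoderm, had 1779 and 1732 CPM in low Wnt and 993 and 1440 CPM in high Wnt, against 6.74 and 4.84 CPM in hESC (low Wnt over hESC, log2 fold change 8.23). VGLL3 and MMRN1 were thus high at the lower dose alone of the 2 doses, and PRTG was high at both. IGFBP5, which binds insulin-like growth factors, had 1413 and 1402 CPM in low Wnt, against 7.92 and 6.79 CPM in hESC (log2 fold change 7.57 ± 0.17, adjusted p = 7.22e-15). TXNIP, a regulator of redox state and glucose uptake, had 1334 and 807 CPM in low Wnt, against 24.8 and 21.4 CPM in hESC (log2 fold change 5.53 ± 0.46, adjusted p = 1.76e-08). MALAT1, a nuclear long noncoding RNA, had 1766 and 1145 CPM in low Wnt, against 197 and 87.4 CPM in hESC (log2 fold change 3.35 ± 0.28, adjusted p = 2.05e-08). TXNIP and MALAT1 were higher in low Wnt 1 than in low Wnt 2, in each case above both hESC libraries.

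The 15 largest falls ended near 0. TIMP4, a metalloproteinase inhibitor, had 0 and 0 CPM in low Wnt, against 9.48 and 12.6 CPM in hESC (at least 121-fold lower). CALB1, a calcium-binding protein, had 0.122 and 0.179 CPM in low Wnt, against 31 and 25.7 CPM in hESC (log2 fold change -7.48). TNFRSF8, the CD30 antigen of embryonal carcinoma, had 0.365 and 0.239 CPM in low Wnt, against 69 and 74.8 CPM in hESC (log2 fold change -7.86). None of the 3 exceeded 0.4 CPM in low Wnt. Between the doses 5 of the 15 were lower in low Wnt and 10 were not called, a description as well, since the 15 were chosen as low in these low Wnt libraries (19.4% of all tested genes were lower). Those 5 were TIMP4, NKX1-2, LCP1, OVOL2 and RBM47, and NKX1-2 had 0 and 0.0598 CPM in low Wnt, against 5.15 and 4.75 CPM in high Wnt. Among the largest falls in CPM, ACTB, cytoplasmic actin, had 2305 and 2563 CPM in low Wnt, against 5083 and 6193 CPM in hESC (log2 fold change -1.21 ± 0.12, adjusted p = 2.04e-07). CD24, a surface glycoprotein, had 713 and 856 CPM in low Wnt, against 3114 and 3468 CPM in hESC (log2 fold change -2.07 ± 0.11, adjusted p = 5.77e-11). Both remained abundant.

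**Figure D5:**
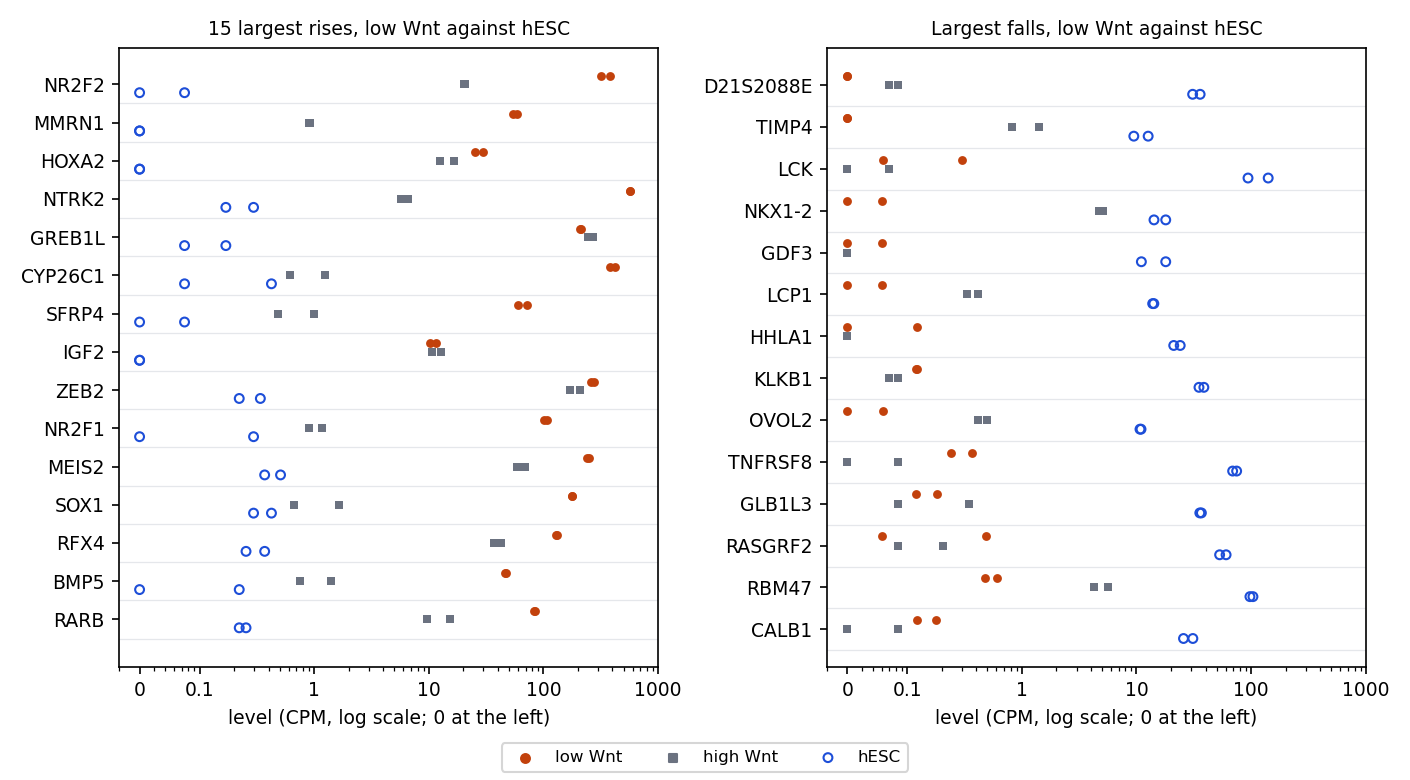
Levels of the 15 genes with the largest rises (left) and of 14 of the 15 with the largest falls (right) in the libraries of low Wnt (red circles), high Wnt (grey squares) and hESC (open circles), in CPM on a log axis with 0 at the left, n = 2 libraries each. NTRK2, CYP26C1 and SOX1 are far higher in low Wnt than in the other groups, GREB1L and IGF2 lie at similar levels in high Wnt, and after the falls both induced groups lie below hESC.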

How the data were processed

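Poly(A) RNA was prepared with the RNAqueous-micro kit and made into stranded libraries with NEBNext kits, per the labels' protocols. The authors deposited 1 table of raw read counts per gene for all 14 libraries, with gene coordinates and exon lengths. Per the submitters' processing notes the tools were bcl2fastq, HISAT2 2.2.0, SAMtools 1.10 and featureCounts 2.0.0 with hg38, with no settings named there. The labels give the uninduced cells the protocol text of the induced ones, so their culture and harvest are not described separately.

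Counts were tested with edgeR 4.0.16 in R 4.3.3 (quasi-likelihood test, 1 mean per group over all 14 libraries in 7 groups, 7 residual degrees of freedom, TMM scaling, filterByExpr filter), and p-values were adjusted by the Benjamini-Hochberg method over 16149 genes. CPM used TMM-scaled totals. The procedure was also run on simulated counts, in which far fewer genes differed between the groups than were called here. Scaling under so broad a change was therefore not tested, and nothing is read from that run. Floors take 3 counts, and they and the 95% intervals cover counting error only.

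Genes were named by rank of fold change and of CPM difference, by smallest p within each list, as members not called or moving against their list, as HOX genes, or from a short panel. Members and lists were chosen with earlier results of these data known, and some further list members were chosen as examples after their values were seen. Alternatives were DESeq2 1.42.0, 2 other scalings, no filter, the 2 groups alone, a replicate block, a fold change threshold, leaving out each library and, added after seeing the data, removal of the length trend. Some genes are not reported here.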

Additional observations from a re-analysis of the deposited data

How the results depend on the processing

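Requiring a log2 fold change of at least 1 left 6550 of the 11535 genes called against hESC, 3295 higher and 3255 lower, and 2774 of the 6223 called against high Wnt. The count of genes called against hESC was 10983 with DESeq2, 11552 with RLE scaling, 11494 with library totals alone, 11811 with no filter and 10722 with the 2 groups alone. In fits without 1 library it lay between 10461 and 11111, with 5229 to 5589 higher and 5232 to 5522 lower, and for the dose comparison between 4573 and 5108. The median of all genes was 0.093 with library totals alone. Against hESC, no named gene that was called in the main fit or in an alternative changed sign between them. Genes called in neither fit were not checked for sign. Genes below about 0.2 CPM in a library rest on 3 counts or fewer.

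The labels tie a replicate number to no shared batch, and not every pair of groups passed the check, so the numbers were not used to pair libraries. Deviations from the group means correlated at -0.0040 between same-numbered libraries of low Wnt and hESC, at 0.094 between those of low Wnt and high Wnt, and 5 of 21 pairs of groups exceeded 0.1, among them all 3 pairs of high Wnt groups. With the replicate number as a block 11699 genes were called, 11504 of them among the 11535, and 6563 in the dose comparison.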
